A study of Homo sapiens with 8 samples.

Results

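The HOXA cluster on human chromosome 7 was followed through a screen for DNA that binds RNA oligos. The 9 genes described are HOXA2, HOXA3, HOXA4, HOXA5, HOXA6, HOXA7, HOXA9, HOXA10 and HOXA11, and the DNA described is the window chr7:27092993-27200091 (hg38, 107 kb), which reaches past HOXA2 on one side and past HOXA11 on the other. Regions were taken from the 6 deposited lists if they overlapped the window or carried one of the 9 names. The rule used position and name and no measured value, but the members were chosen with earlier results of these data known. It gave 58 of 327994 regions, and every region that carried a member's name lay in the window. The 9 genes stand among 19126 autosomal protein-coding genes of the gene table.

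The screen mixed a biotinylated RNA oligo with sonicated genomic DNA of H1 (a human embryonic stem cell line) that had been freed of RNA, and sequenced what streptavidin beads retained and RNases released. The groups were the oligo MEG3 TFR1, the oligo MEG3 TFR2, the oligo GATA6-AS TFR1 and the same procedure with no oligo, with 2 libraries each from separate experiments. MEG3 and GATA6-AS are long noncoding RNAs; the labels do not spell out TFR and speak of triplex-forming loci. The substrate was purified DNA of a single cell line, so chromatin, transcription and cell identity were not measured and the cell type could not be checked against marker expression.

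HOX genes encode homeodomain transcription factors that give cells their position along the body axis, and their order on the chromosome follows the order of their expression along that axis. The cluster is also dense in noncoding antisense transcripts, among them HOTAIRM1, HOXA-AS2, HOXA-AS3, HOXA10-AS and HOXA11-AS. In an RNA-DNA triplex a single RNA strand lies in the major groove of the duplex, and the duplex strand it contacts is a stretch of purines.

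Each list gives a single log2 ratio per region, the oligo libraries over the no-oligo libraries, as the authors deposited it. A positive ratio (captured) is more signal with the oligo, and a negative one (control) more signal without it. The lists do not separate the libraries or state reads, so replicate spread and depth are unknown. No test over samples could be made, and no difference below carries a p-value. The 2 no-oligo libraries serve as the control in each of the 3 comparisons.

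5 start sites carry the sequence side of the results, from the RefSeq promoter table of GRCh38.p14, the build of the lists. HOXA-AS3 is a noncoding gene (27140364 to 27155928) on the strand opposite to HOXA6. Its one start in the promoter table is an inner one, inside HOXA6 at 27147163, called the HOXA-AS3 start here, and it lay in a captured region of all 3 oligos (capitals mark the 288 bases common to all 3, chr7:27146913-27147212, plus strand). The outermost start of HOXA3 lay beside a GATA6-AS TFR1 captured region that covers 83 of the 250 bases before it (capitals, chr7:27152584-27152833, minus strand). The start of HOXA-AS2 is shown because control regions lay there (capitals mark 118 bases in a control region, chr7:27121669-27121968, plus strand). The 250 bases before the starts of HOXA10 (chr7:27179862-27180111, minus strand) and HOXA11 (chr7:27185233-27185482, minus strand) are shown for their uninterrupted pyrimidine and purine runs (capitals), and no listed region overlapped either.
HOXA-AS3: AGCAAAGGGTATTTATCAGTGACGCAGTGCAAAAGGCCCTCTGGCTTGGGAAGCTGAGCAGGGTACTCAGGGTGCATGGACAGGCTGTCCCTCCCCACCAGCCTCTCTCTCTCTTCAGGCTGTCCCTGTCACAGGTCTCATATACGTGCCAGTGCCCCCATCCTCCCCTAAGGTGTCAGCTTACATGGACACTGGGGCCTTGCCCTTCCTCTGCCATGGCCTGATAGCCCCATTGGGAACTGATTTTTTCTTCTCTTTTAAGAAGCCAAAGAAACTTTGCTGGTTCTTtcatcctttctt
HOXA3: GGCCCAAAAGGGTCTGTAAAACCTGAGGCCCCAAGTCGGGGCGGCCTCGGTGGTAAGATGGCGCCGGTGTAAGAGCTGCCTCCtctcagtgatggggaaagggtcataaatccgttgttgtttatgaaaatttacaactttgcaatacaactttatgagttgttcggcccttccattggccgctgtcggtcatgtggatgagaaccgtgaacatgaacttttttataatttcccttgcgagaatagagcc
HOXA-AS2: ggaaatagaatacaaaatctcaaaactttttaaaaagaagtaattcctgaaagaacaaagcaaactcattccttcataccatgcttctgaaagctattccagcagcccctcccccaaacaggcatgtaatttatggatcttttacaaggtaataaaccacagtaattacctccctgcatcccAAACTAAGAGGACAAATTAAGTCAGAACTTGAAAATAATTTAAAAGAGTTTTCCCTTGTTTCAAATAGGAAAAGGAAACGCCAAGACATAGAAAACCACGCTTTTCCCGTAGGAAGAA
HOXA10: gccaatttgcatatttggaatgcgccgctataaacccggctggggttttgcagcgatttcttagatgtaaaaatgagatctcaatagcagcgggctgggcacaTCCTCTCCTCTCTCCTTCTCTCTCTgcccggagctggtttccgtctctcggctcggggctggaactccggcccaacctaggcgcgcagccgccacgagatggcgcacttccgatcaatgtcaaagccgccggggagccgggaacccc
HOXA11: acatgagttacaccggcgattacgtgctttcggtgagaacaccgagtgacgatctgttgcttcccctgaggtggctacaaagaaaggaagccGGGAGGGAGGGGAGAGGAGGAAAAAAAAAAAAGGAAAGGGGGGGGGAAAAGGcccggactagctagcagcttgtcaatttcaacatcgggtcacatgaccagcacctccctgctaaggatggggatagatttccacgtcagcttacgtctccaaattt

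Captured regions were dense over the cluster with each oligo. GATA6-AS TFR1 had 26 regions in the window, MEG3 TFR1 had 19 and MEG3 TFR2 had 9, against 2, 1 and 1 control regions. The control lists are shorter throughout, and these few control regions stood at 1.40, 2.01 and 2.32 times their autosomal density. GATA6-AS TFR1 captured regions stood at 24.3 per 100 kb in the window and 3.85 per 100 kb over the 22 autosomes, a ratio of 6.31. MEG3 TFR1 regions stood at 17.7 and 3.29 per 100 kb, a ratio of 5.38, and MEG3 TFR2 regions at 8.40 and 2.70 per 100 kb, a ratio of 3.11. Captured regions covered 13.4% of the window with GATA6-AS TFR1, 9.71% using MEG3 TFR1 and 3.22% using MEG3 TFR2, against 1.82%, 1.39% and 0.982% of the autosomes, counted between their outermost regions without empty stretches over 1 Mb. The captured lists differ in length: with each kept to the 73546 regions with the largest ratios, an alternative added after the data were seen, the window held 17, 15 and 9 regions in the same order. Of the window's regions, 7 of 26 GATA6-AS TFR1, 4 of 19 MEG3 TFR1 and 6 of 9 MEG3 TFR2 ones reached a log2 ratio of 1.5, so that most of the GATA6-AS TFR1 and MEG3 TFR1 regions fell away and the order of the MEG3 oligos turned. At that limit the densities were 4.82, 2.68 and 4.66 times those over the autosomes, in the same order.

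Each oligo had fewer captured regions in either 107 kb flank than in the window, but not every oligo showed a drop at the borders themselves. With 20 kb added on each side of the window, the MEG3 TFR2 count rose from 9 to 13. The share covered by that oligo's regions was 3.22% before and 3.26% after. The GATA6-AS TFR1 count rose from 26 to 34, and its covered share fell from 13.4% to 11.5%. For MEG3 TFR1 the count rose from 19 to 22, and the share fell from 9.71% to 7.92%. In the 107 kb on the side of SKAP2, an adaptor protein gene, there were 4 captured regions with GATA6-AS TFR1, 3 using MEG3 TFR1 and 3 using MEG3 TFR2, or 0.971, 0.850 and 1.04 times the autosomal density. In the 107 kb on the side of EVX1, a homeobox gene beyond the end of the cluster, there were 14, 4 and 7 regions, or 3.40, 1.13 and 2.42 times that density. Toward EVX1, the last region inside and the first outside the window had log2 ratios of 1.16 and 1.18 in the GATA6-AS TFR1 list, 0.94 and 1.13 in the MEG3 TFR1 list, and 1.70 and 1.02 in the MEG3 TFR2 list. Toward SKAP2, the last GATA6-AS TFR1 region inside stood at 2.83-fold and the first outside at 2.56-fold. The MEG3 TFR1 ones stood at 2.24-fold inside and 3.39-fold outside, and the MEG3 TFR2 one outside stood at 4.56-fold, above the one inside, whose log2 ratio was 1.32. Some of these pairs lay far apart, so their ratios do not describe the border itself. The MEG3 TFR2 pair toward SKAP2 was chr7:27066851-27067150 and chr7:27111251-27111550. The MEG3 TFR1 pair toward EVX1 was chr7:27186001-27186800 and chr7:27215301-27215600.

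The other HOX clusters held values of the same order. GATA6-AS TFR1 had 24.3 captured regions per 100 kb in HOXA, 30.0 in HOXB, 47.8 in HOXC and 26.1 in HOXD. MEG3 TFR1 had 17.7 in HOXA, 26.5 in HOXB, 38.4 in HOXC and 10.6 in HOXD. MEG3 TFR2 had 8.40 in HOXA, 16.0 in HOXB, 26.5 in HOXC and 10.6 in HOXD. HOXA thus had the lowest value of the 4 clusters with MEG3 TFR2 and GATA6-AS TFR1, and the second lowest with MEG3 TFR1. With one list per oligo, none of these differences has an error or a test.

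**Figure D1:**
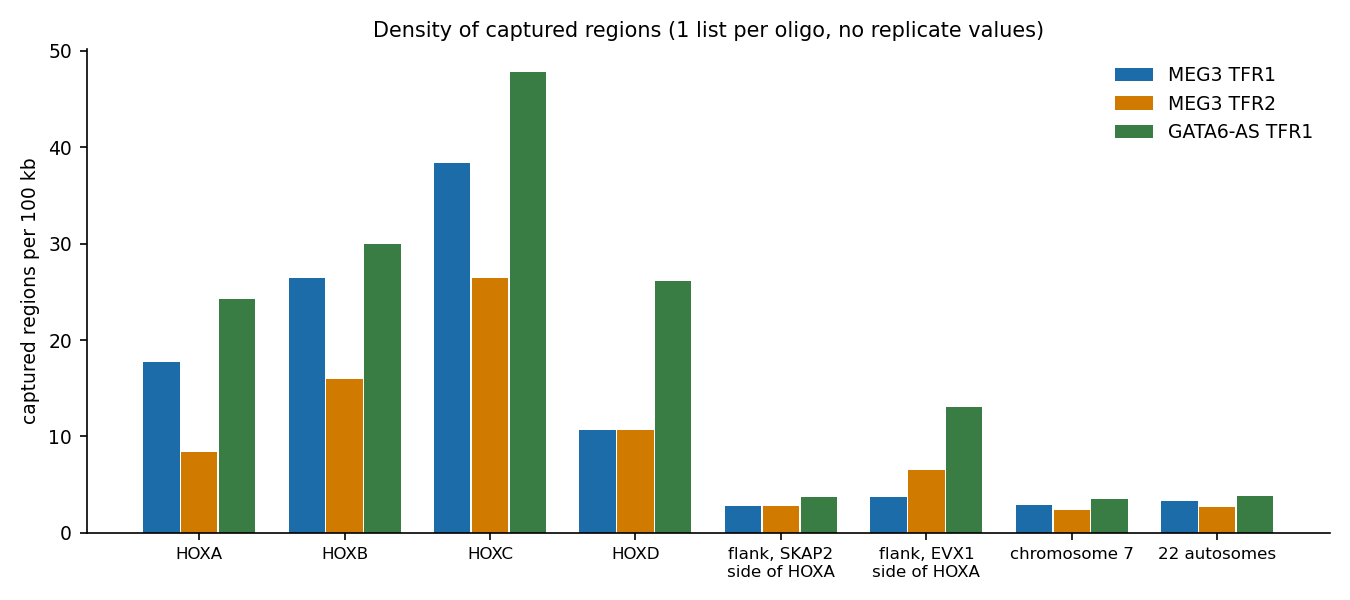
Captured regions per 100 kb (vertical axis, from 0) for each oligo in the HOXA window, the HOXB, HOXC and HOXD clusters, the DNA on both sides of HOXA, chromosome 7 and the 22 autosomes. With each oligo the HOXA bar stands above both flanks and the autosomes and below HOXB and HOXC.

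The captured DNA of the cluster had moderate ratios. With GATA6-AS TFR1 the 26 log2 ratios ran from 0.82 to 2.22 (median 1.38, against 1.34 over the whole list). With MEG3 TFR1 the 19 ratios ran from 0.69 to 1.92 (median 1.37, against 1.41), and with MEG3 TFR2 the 9 ratios ran from 0.70 to 2.10 (median 1.73, against 1.44). The highest was 4.65-fold with GATA6-AS TFR1, near the 3′ end of HOXA3 (chr7:27108251-27108650), and 5.50% of that oligo's regions were as high. The highest with MEG3 TFR2 was 4.30-fold, in HOXA6 (chr7:27146801-27147200; 10.7% as high), and with MEG3 TFR1 3.79-fold, beside HOXA5 (chr7:27139901-27140250; 17.3% as high). The median width was 500 bp in the window against 400 bp over the whole GATA6-AS TFR1 list, 500 against 350 bp for MEG3 TFR1, and 350 bp in both for MEG3 TFR2.

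**Figure D2:**
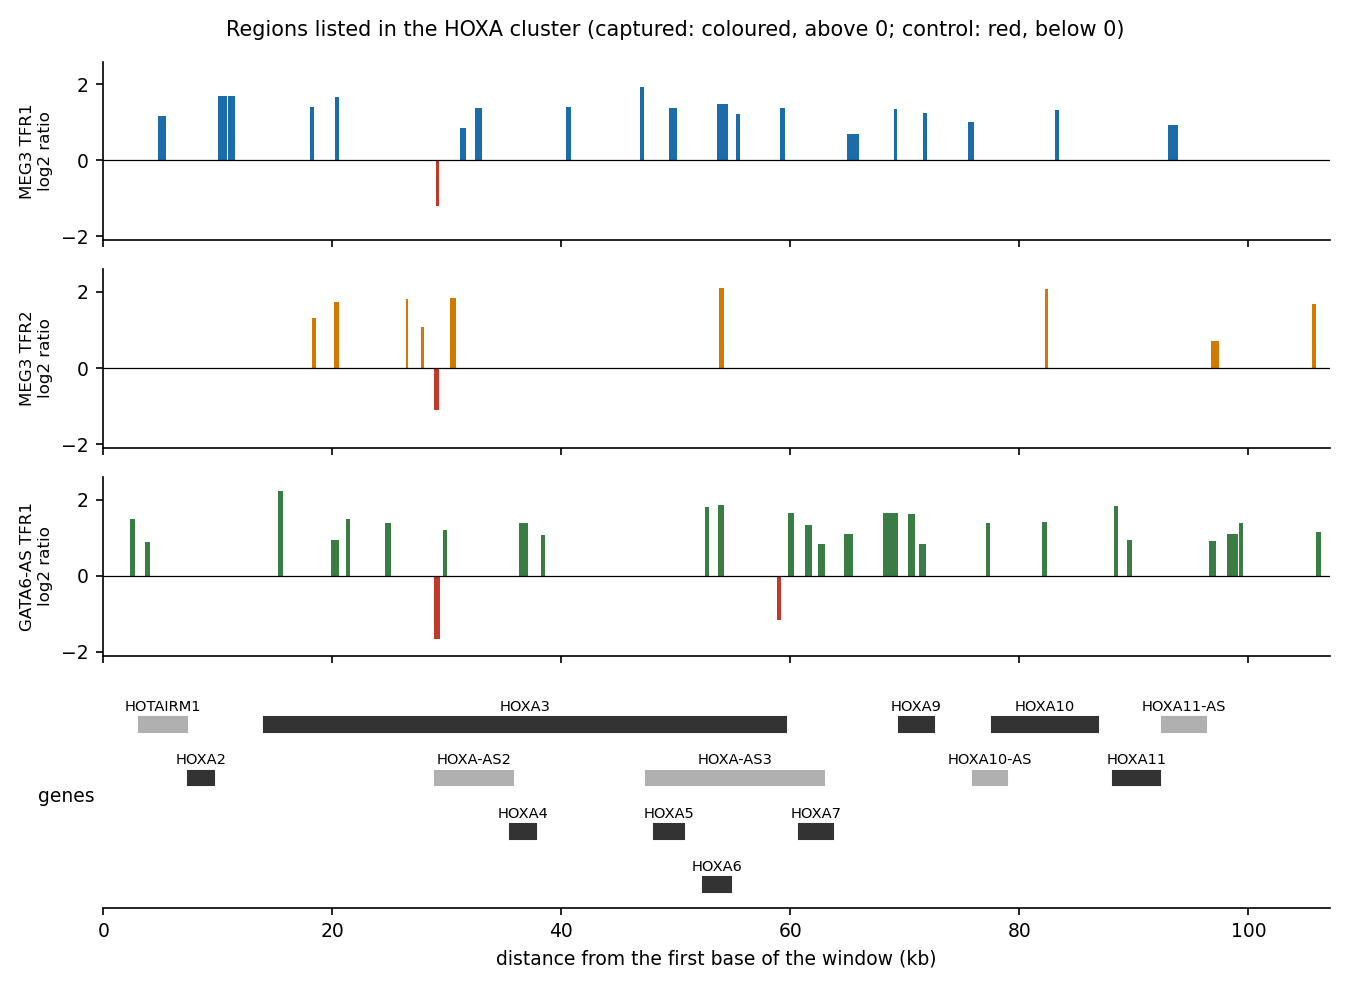
Regions of each list along the window (horizontal axis, kb from its first base), with the authors' log2 ratio as height. Captured regions stand above 0 and control regions, in red, below; black bars are the 9 genes and grey bars noncoding genes. Of the 9 MEG3 TFR2 regions, 5 lie toward the 3′ end of HOXA3, and control regions over or near the HOXA-AS2 start overlap in the 3 lists.

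Region counts along the cluster differed between the oligos, but the counts are small and carry no error. They are given for blocks of genes, which leave out the regions between and beyond the blocks. Over the anterior genes HOXA2 to HOXA4 (30.4 kb) each oligo had a similar number, 6 regions with GATA6-AS TFR1, 6 using MEG3 TFR1 and 5 using MEG3 TFR2. From HOXA5 to HOXA7 (15.6 kb) there were 5, 4 and 1, and from HOXA9 to HOXA11 (22.8 kb) 6, 3 and 1. The longest stretch without a captured region between 2 such regions was 28000 bp with MEG3 TFR2 (chr7:27147201-27175200, from HOXA6 into HOXA10), 14000 bp with GATA6-AS TFR1 (chr7:27131551-27145550, across HOXA5) and 10550 bp with MEG3 TFR1 (chr7:27113601-27124150, inside HOXA3).

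Counted by gene, a captured region lay within 1 kb of either end of 7 of 9 genes with GATA6-AS TFR1, where 48.8% of all autosomal protein-coding genes had one. The count was 6 of 9 with MEG3 TFR1, against 29.4%, and 1 of 9 with MEG3 TFR2, against 23.2%. Control regions lay there for 1, 0 and 0 genes, against 6.18%, 2.44% and 2.32%. They overlapped the body of 1 gene with each oligo, HOXA3, against 40.0%, 21.3% and 19.4% of all genes. Neighbouring genes here have regions in common and are no independent units. With ends of 5 kb the counts were 9 of 9 with GATA6-AS TFR1, against 68.9% of all genes, 9 of 9 with MEG3 TFR1, against 59.7%, and 6 of 9 with MEG3 TFR2, against 54.0%. Captured regions overlapped the gene itself for 7, 5 and 3 genes, against 69.9%, 62.6% and 59.3% of all genes. With 5 kb added on each side of the gene, they did so for 9, 9 and 6 genes, against 79.4%, 74.0% and 70.7%. Leaving out HOXA3, which is 45574 bp long, they overlapped 6, 4 and 2 of the 8 others, against 58.1%, 41.5% and 36.3% of the genes of their length range (2233 to 9257 bp).

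**Figure D3:**
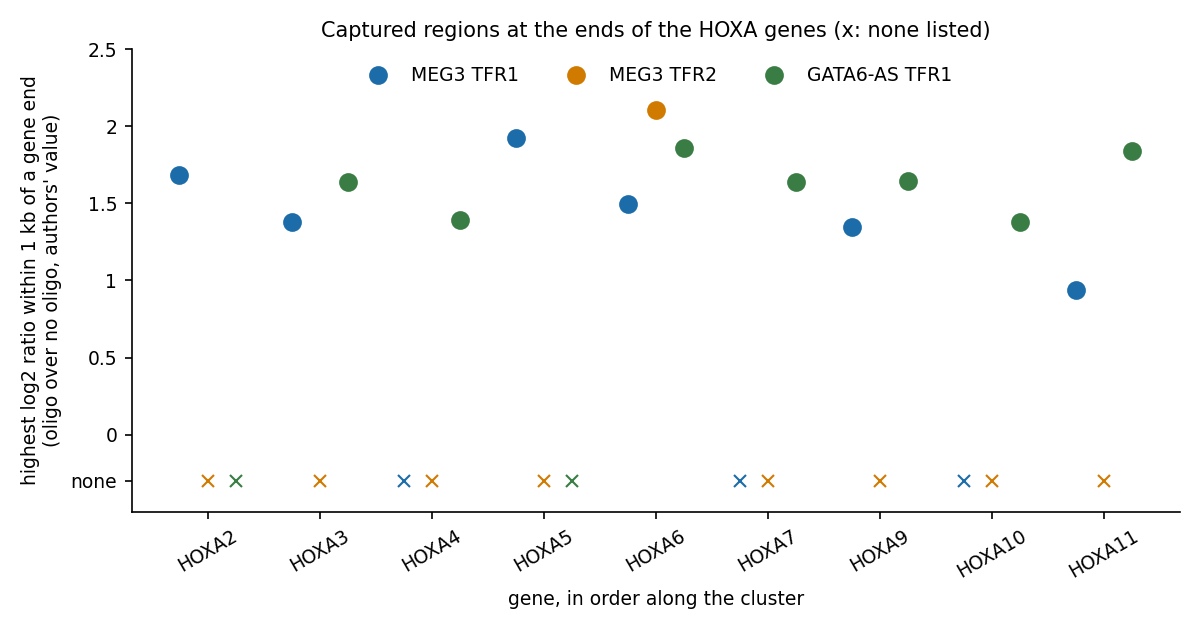
Highest authors' log2 ratio (vertical axis) among captured regions within 1 kb of either end of each gene, by oligo; a cross at the level marked none means that no region was listed there. HOXA6 carries a point for each of the 3 oligos, and HOXA6 is the one gene with a MEG3 TFR2 point.

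HOXA2 (27100354 to 27102683), which patterns the hindbrain and the second pharyngeal arch, had a captured region at its ends with a single oligo, MEG3 TFR1. It began 368 bp upstream of the start, at 3.21-fold (chr7:27103051-27103800), and a neighbour followed further upstream (chr7:27103901-27104450, log2 ratio 1.69). The nearest region lay 3254 bp from the gene with GATA6-AS TFR1 and 8568 bp from it with MEG3 TFR2.

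HOXA3 (27107010 to 27152583), needed for the thymus and parathyroid, is annotated with 7 starts and spans HOXA4, HOXA5 and HOXA6. It held 9 regions with GATA6-AS TFR1, 10 using MEG3 TFR1 and 6 using MEG3 TFR2, covering 9.44%, 11.2% and 4.61% of it. Regions of all 3 oligos overlapped at chr7:27112901-27113600, ending 242 to 292 bp downstream of an inner start, with log2 ratios of 0.93 for GATA6-AS TFR1, 1.67 in the MEG3 TFR1 list and 1.73 in the MEG3 TFR2 list. A MEG3 TFR2 region with a log2 ratio of 1.81 lay over another inner start (chr7:27119401-27119600). That oligo also had a region 274 bp upstream of a further inner start (log2 ratio 1.85).

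HOXA4 (27128525 to 27130757) was met with GATA6-AS TFR1. One region at 2.62-fold covered 38.1% of the gene (chr7:27129251-27130100), and a weaker one at 2.08-fold began 444 bp upstream of the start. No MEG3 TFR1 or MEG3 TFR2 region lay within 1 kb of the gene, the nearest being 2425 and 4725 bp away. HOXA5 (27141052 to 27143681), which acts in lung development, showed the reverse. MEG3 TFR1 had one region in it at a log2 ratio of 1.37 (chr7:27142351-27143050), covering 26.6% of it, and the 3.79-fold region beside it. The nearest GATA6-AS TFR1 region was 1870 bp away and the nearest MEG3 TFR2 region 3120 bp.

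HOXA6 (27145396 to 27147774) had a captured region of every oligo, the one gene of the 9 for which this held at its ends. The regions overlapped each other over 400 bp (chr7:27146801-27147200). The ratio was 3.63-fold with GATA6-AS TFR1, 2.82-fold using MEG3 TFR1 and 4.30-fold using MEG3 TFR2. They lay over the inner HOXA-AS3 start, whose sequence is given above, and stopped 574, 224 and 574 bp short of the start of HOXA6 in the same order. GATA6-AS TFR1 had a further region near the other end of HOXA6 (log2 ratio 1.80), and MEG3 TFR1 one upstream of its start (log2 ratio 1.23), so the 300 bases at the HOXA6 start itself were in no list.

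**Figure D4:**
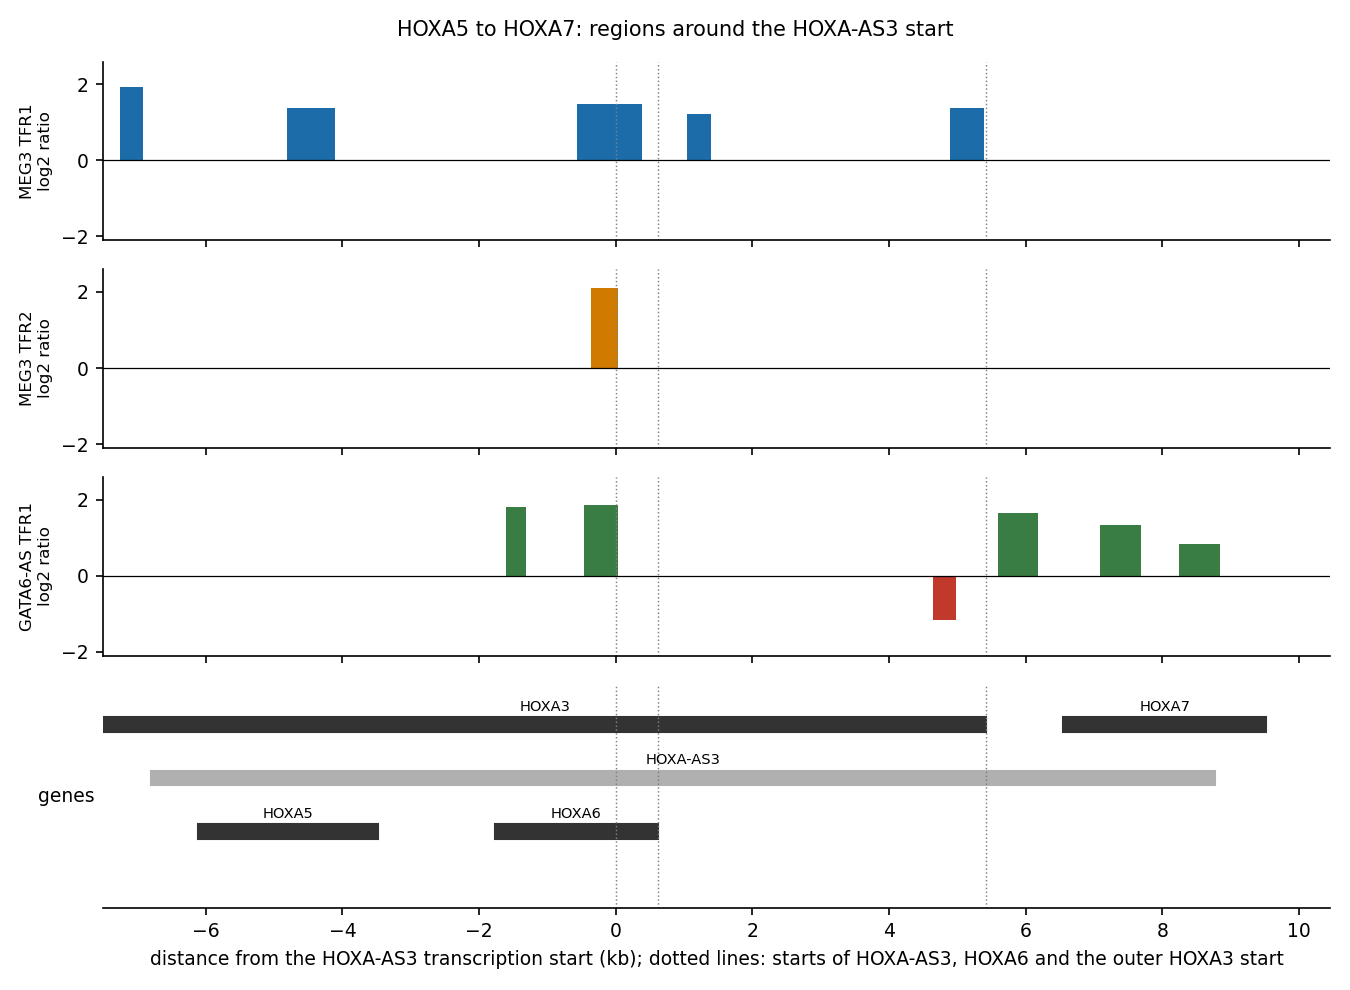
Regions from HOXA5 to HOXA7, with the authors' log2 ratio as height and distance from the HOXA-AS3 start in kb along the horizontal axis; captured regions are coloured, the control region is red, and dotted lines mark the starts of HOXA-AS3 (at 0), HOXA6 and, at the right, the outermost start of HOXA3. Captured regions of the 3 oligos stack over the HOXA-AS3 start, and near the outermost HOXA3 start the MEG3 TFR1 captured and GATA6-AS TFR1 control regions overlap.

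HOXA7 (27153716 to 27156675) carried 2 GATA6-AS TFR1 regions, at log2 ratios of 1.33 and 0.82, which covered 40.5% of the gene. The higher ratio drawn for it in the plot of gene ends, 1.64, belongs to a region past its 3′ end that also lies 168 bp upstream of the outermost HOXA3 start. Upstream of HOXA7, between it and HOXA9, GATA6-AS TFR1 and MEG3 TFR1 regions overlapped (chr7:27157651-27159000), at log2 ratios of 1.11 and 0.69, and 0.69 was the lowest MEG3 TFR1 value in the window.

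HOXA9 (27162438 to 27165537), a regulator of blood stem and progenitor cells that is often overexpressed in leukaemia, was met by the same pair of oligos. GATA6-AS TFR1 had 2 regions in it, at log2 ratios of 1.62 and 0.84, and MEG3 TFR1 one, at 1.24, which overlapped the weaker of those. At its 3′ end lay the widest captured region of the window, 1300 bp with GATA6-AS TFR1 (log2 ratio 1.65, chr7:27161101-27162400), over which a MEG3 TFR1 region stood at 1.35. MEG3 TFR2 had none within 9664 bp.

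HOXA10 (27170605 to 27179861), which acts in the uterus and in blood cells, held one region of each oligo, and none at its outermost start. GATA6-AS TFR1 and MEG3 TFR2 regions overlapped at chr7:27175001-27175500, 681 and 881 bp upstream of an inner start, at 2.68-fold and 4.21-fold. The MEG3 TFR1 region lay 1781 bp upstream of that start, at 2.51-fold. Just past the 3′ end lay a GATA6-AS TFR1 region with a log2 ratio of 1.38. HOXA11 (27181157 to 27185232), which acts in limb, kidney and uterus, had 2 GATA6-AS TFR1 regions toward its 3′ end, at 3.59-fold and 1.92-fold. MEG3 TFR1 had one 769 bp upstream of the start, at 1.92-fold, inside HOXA11-AS. Between HOXA9 and HOXA10, the hairpin of the microRNA gene MIR196B (27169480 to 27169563) lay in no captured region: the nearest were 430 bp away with MEG3 TFR1 (log2 ratio 1.01), 488 bp with GATA6-AS TFR1 (1.38) and 5638 bp with MEG3 TFR2.

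Of the 9 genes, 8 have starts in the RefSeq promoter table, 15 in all (HOXA5 has no entry). A captured region within 1 kb of a start was found for 6 of the 8 with GATA6-AS TFR1, 5 using MEG3 TFR1 and 3 using MEG3 TFR2, where 42.9%, 23.2% and 14.9% of genes had one. Overlap with the 300 bases from 250 before to 50 after a start was found for HOXA3 alone with each oligo, 1 of 8 genes, against 20.5%, 8.73% and 4.11% of genes. It involved 3 of its 7 starts, and the overlap was 17 to 83 bases. Control regions likewise overlapped HOXA3 alone among the 8, at another of its starts, against 0.709%, 0.252% and 0.272% of genes.

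Each promoter was searched on both strands for 3 purine motifs, which may overlap each other. GAGAGA was in 22.4% of 35116 promoters of the table, while GGAGGA was in 36.6% and another, GAAGAA, in 19.8%. The HOXA-AS3 start, singled out because it lay in a captured region of all 3 oligos, held all 3 motifs, as did 1.91% of promoters. The motifs too were chosen with earlier results of these data known, and a link between motif and capture was not tested. The longest run of purines or of pyrimidines at the HOXA-AS3 start was 16 bases, a length that 15.4% of promoters reached. The outermost HOXA3 start held none of the 3 motifs and a longest run of 10 bases. The HOXA11 start held a purine run of 52 bases, a length that 50 of 35116 promoters reached (0.142%). The promoter of HOXA11-AS, on the other strand, carries the same 52 bases. The outer HOXA10 start held a pyrimidine run of 25 bases, reached by 2.29%. Neither the HOXA11 start nor the outer HOXA10 start was in a captured region. The nearest captured regions were 769 bp (MEG3 TFR1) and 1390 bp (GATA6-AS TFR1) from these starts. Among the 15 starts of the 9 genes, GGAGGA was in 6, GAGAGA in 2 and GAAGAA in 0. A motif match is a description of the letters in these windows only.

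2 control loci lay in the window. At one, control regions of the 3 lists overlapped. The GATA6-AS TFR1 region (chr7:27121851-27122400) covered the HOXA-AS2 start and an inner HOXA3 start. The MEG3 TFR2 region (chr7:27121901-27122350) covered the HOXA-AS2 start only, and the MEG3 TFR1 region (chr7:27122051-27122350) covered neither. The log2 ratio was -1.66 with GATA6-AS TFR1, -1.20 using MEG3 TFR1 and -1.12 using MEG3 TFR2. These regions gave 3.15, 2.30 and 2.17 times as much signal with no oligo as with the oligo. These 3 values have their no-oligo libraries in common. At chr7:27151801-27152150 a control region was listed with GATA6-AS TFR1, at a log2 ratio of -1.18, and it overlapped by 100 bp a MEG3 TFR1 captured region with a log2 ratio of 1.38 (chr7:27152051-27152550). A GATA6-AS TFR1 captured region with a log2 ratio of 1.64 followed on the other side of the start (chr7:27152751-27153350).

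Some overlap with another oligo's region was seen for 8 of 26 GATA6-AS TFR1, 6 of 19 MEG3 TFR1 and 6 of 9 MEG3 TFR2 regions, against 28.1%, 27.4% and 35.6% of each oligo's regions over the autosomes. The stretches met by all 3 were those in HOXA3 and HOXA6 named above. The comparisons share their no-oligo libraries, so nothing about the oligos is drawn from these counts.

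The authors' gene names followed position loosely. Names of the 9 genes were given to 14 of 26 captured regions with GATA6-AS TFR1, 6 of 19 using MEG3 TFR1 and 7 of 9 using MEG3 TFR2, while 16, 12 and 7 overlapped one of the genes. HOXA3 carried 17 of these names and HOXA6 none, although regions of all 3 lists lay in HOXA6. The stretch over the HOXA-AS3 start was named HOXA3 with GATA6-AS TFR1 and MEG3 TFR2, and HOXA-AS3 with another transcript with MEG3 TFR1.

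Proteins that act with HOX factors were looked up from a list of 9 cofactor genes of the PBX, MEIS and PKNOX families, homeodomain proteins that bind DNA together with HOX proteins. A captured region lay within 1 kb of either end of 7 of 9 with GATA6-AS TFR1, 6 using MEG3 TFR1 and 5 using MEG3 TFR2, against the 48.8%, 29.4% and 23.2% of all genes given above. Among the highest with GATA6-AS TFR1 were MEIS2 at 5.32-fold, PBX2 at 4.80-fold and PBX4 at 3.30-fold. With MEG3 TFR1 they included MEIS3 at 7.71-fold, MEIS2 at 5.44-fold and PBX2 at 4.30-fold. With MEG3 TFR2 they included PBX2 at 3.97-fold, MEIS1 at 3.68-fold, MEIS3 at 2.54-fold and MEIS2 at 2.46-fold.

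A second list held 19 genes that regulate HOX chromatin or carry retinoic acid signals, which induce HOX genes. Here 10 of 19 had a region at an end with GATA6-AS TFR1, 6 using MEG3 TFR1 and 4 using MEG3 TFR2, shares near those of all genes. MEN1, which encodes the menin subunit of histone methyltransferase complexes, stood at 6.58-fold with GATA6-AS TFR1, followed by the retinoic acid receptor genes RARG at 4.35-fold and RARA at 4.14-fold. RING1, a Polycomb gene, had a region for every oligo, at 3.83-fold with GATA6-AS TFR1, 4.18-fold using MEG3 TFR1 and 4.32-fold using MEG3 TFR2. RARA, RARG and WDR5 also had a region at an end with every oligo. The other Polycomb genes of the list had none with either MEG3 oligo, and most had none with GATA6-AS TFR1. KMT2A, whose histone methyltransferase maintains HOX expression, stood at 3.89-fold with MEG3 TFR1, and WDR5, a subunit of the same complexes, at 2.77-fold with MEG3 TFR2. Control regions, which lay at an end of 6.18%, 2.44% and 2.32% of all genes, were listed at an end of 0 of 9 cofactor and 0 of 19 regulator genes, counts too small to set apart from those shares.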

How the data were processed

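Per the submitters' processing notes, reads were handled with FastQC and BWA 0.7.15-r1140 on hg38. The sources used here name neither the region caller, its settings nor the scaling. The input of the design text was not analysed here. Each region of the 6 deposited lists carries one log2 ratio by the authors. The log base was read from the values: for 58 of 58 regions here, 2 to the power of the value equalled a fraction of integers (denominators up to 400, tolerance 1e-08). What the integers count is unknown. A fold is 2 to the power of the authors' ratio.

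Lists were used whole, with coordinates counted from 1 and overlap of at least 1 bp. Gene ends and promoter sequences are RefSeq's, GRCh38.p14. No test was made. All 9 members could be named, and from the lists of cofactors and of regulators up to 4 genes with the highest ratio at an end for each oligo, of which 1 is not reported here. Members, lists and motifs were chosen with earlier results of these data known. The counting was tested on simulated data. The alternatives were a stricter ratio, other distances and overlaps and joined regions, and, added after seeing the data, lists of equal length and overlap with promoter sequences. Python 3.11.15, numpy 2.4.6, pandas 2.3.3 and matplotlib 3.10.9 were used.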

Additional observations from a re-analysis of the deposited data

Results flagged for a closer look

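At the outermost HOXA3 start a MEG3 TFR1 captured region with a log2 ratio of 1.38 and a GATA6-AS TFR1 control region with a log2 ratio of -1.18 overlapped by 100 bp. The pair is singled out because the direction against no oligo is opposite for the 2 oligos. The difference was not tested, since each list gives a single value per region.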

How the results depend on the processing

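Of 84 values recomputed under alternatives, 26 were counted as moved and 58 were not. The 58 include sizeable shifts. With 20 kb added on each side, MEG3 TFR2 regions in the window went from 9 to 13. With ends of 5 kb, the genes met by MEG3 TFR1 went from 6 to 9. Keeping log2 ratios of at least 1.5 in size left 7 of 26 captured regions with GATA6-AS TFR1, 4 of 19 with MEG3 TFR1 and, moving less, 6 of 9 in the MEG3 TFR2 list, and 1 control region with GATA6-AS TFR1 and 0 with either MEG3 oligo. The window was then covered to 3.73% by GATA6-AS TFR1, 1.87% by MEG3 TFR1 and 2.01% by MEG3 TFR2 regions. Median log2 ratios became 1.80 with GATA6-AS TFR1 and 1.69 with MEG3 TFR1. With this limit MEG3 TFR1 met the ends of 2 genes, against 14.1% of all genes, and the body of 1, against 43.5%, and GATA6-AS TFR1 the body of 4, against 48.0%. Regions overlapping another oligo's numbered 1 with GATA6-AS TFR1, 1 using MEG3 TFR1 and 2 using MEG3 TFR2, and regions named for a member 6 with GATA6-AS TFR1 and 2 with MEG3 TFR1. With lists of equal length, GATA6-AS TFR1 kept 17 regions, 4 of them overlapping another oligo's. MEG3 TFR2 met 6 genes with ends of 5 kb, against 54.0% of all genes, and 3 within 1 kb of a start, against 14.9%. Overlap with promoter sequences left 1 gene with GATA6-AS TFR1 and 1 with MEG3 TFR1. Bodies widened by 5 kb gave 9 genes with MEG3 TFR1, against 74.0% of all genes, and 6 with MEG3 TFR2, against 70.7%. Fewer regions under the stricter limits follow from their construction; other causes were not tested. No paired analysis was possible because libraries have no values of their own in these lists, and none could be left out.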

Other observations

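Some genes on either side of the cluster had higher ratios than any region in the window. With GATA6-AS TFR1 the homeobox gene EVX1 had a region at an end at 9.97-fold, SKAP2 one at 7.36-fold and CBX3, which encodes a heterochromatin protein, one at 6.92-fold, against a highest value of 4.65-fold in the window. With MEG3 TFR2, SKAP2 stood at 4.90-fold and the noncoding gene HOTTIP at 4.70-fold, against 4.30-fold. With MEG3 TFR1 no region was listed at the ends of these 4 genes. They belong to a list of 13 genes in and around the window, of which 10 had a captured region at an end with GATA6-AS TFR1, 5 using MEG3 TFR1 and 4 using MEG3 TFR2, against 48.8%, 29.4% and 23.2% of all autosomal protein-coding genes. The list includes noncoding genes inside the window, where the regions are those already counted above, so the shares are not of like genes.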
